A study of Mus musculus with 6 samples.

Results

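Interferon response genes are the genes that cells switch on when an interferon binds its receptor. A set of 53 such genes, taken from the type I and type II interferon programmes and chosen by symbol from a written list, was followed in the small intestine of young mice. All 53 of the 53 symbols were found among the 24452 entries of the deposited files, and all 53 passed the filter on low values. The samples were whole small intestine of C57BL/6 mice at postnatal day 14, with 3 libraries from wild type animals and 3 from animals whose genotype is given as Erk1/2 -/-. The labels name no allele, no driver line, no treatment and no shared genetic change, and they do not state whether each library came from a separate animal. The p-values therefore measure the spread between these libraries, which may be technical. In whole tissue, fewer cells of a type and less RNA per cell cannot be told apart.

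Interferons act through membrane receptors coupled to JAK kinases. Type I and type III (lambda) interferons lead to a STAT complex with STAT2 and IRF9 that binds the interferon-stimulated response element (ISRE) in promoters, while interferon gamma, the type II interferon, leads to STAT dimers that bind the gamma-activated site (GAS). The induced proteins sense viral RNA, block viral RNA translation, degrade RNA, mark proteins with ISG15, attack vacuoles that hold microbes, or raise antigen presentation. In the adult gut, epithelial cells respond mainly to lambda interferon, and cells beneath them respond mainly to type I interferon. The mice here were younger.

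The value for each gene and library was a normalised count, a whole number after the authors' scaling between libraries. Sums over all genes ranged from 13641468 to 14094100 in wild type and from 14825845 to 17153570 in the libraries labelled knockout, from an estimated 12500000 to 16300000 reads per library. The kinase gene looked up did not bear out the genotype label. Mapk3, which encodes ERK1, stood at 3142, 2788 and 2004 in the wild type libraries (replicates 1, 2 and 3, the order used throughout) and at 3363, 2280 and 2734 in those labelled knockout, a log2 fold change of 0.09 ± 0.22 (SE; limma adjusted p = 0.819). It was not lower, and the labels do not say which part of the gene was altered. All directions below are for the libraries labelled knockout against the libraries labelled wild type. Wild type 3 and labelled knockout 1 stood apart from the rest on a score of position along the gut. The score was the mean log2 level of 5 proximal genes minus that of 4 ileal genes. It was -0.27 and -0.03 in these libraries, against 4.08 and 3.50 in wild type 1 and 2 and 5.71 and 5.54 in labelled knockout 2 and 3. They were not alike on every ileal gene. Fgf15, in the score, stood at 1975 and 390 in them. Fabp6, below the filter and outside the score, stood at 4 and 1947. For some of the genes described below, fold changes without labelled knockout 1, or without both wild type 3 and labelled knockout 1, are given as well. With both left out, wild type 1 and 2 stood against labelled knockout 2 and 3. In that fit 26.4% of all genes were called (limma adjusted p under 0.05). Without labelled knockout 1 alone 20.6% were called, against 8.79% with all libraries.

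Most interferon response genes did not pass the test between the genotypes, and those that did moved in both directions. Ifit3, Rtp4 and Gbp3 were lower in the libraries labelled knockout, while Mx1 and Oasl1 were higher. These 5 of 53 members (9.43%) passed an adjusted p of 0.05 in limma (Benjamini-Hochberg over 14686 genes tested), against 8.79% of all genes tested, so the share among the members was near the background. Of all genes, 3.94% were called lower (579) and 4.85% higher (712), a balance that depended on the scaling: upper-quartile scaling gave 681 lower and 546 higher, and library totals gave 983 lower and 414 higher, with 6 members lower and 0 higher. The fold changes of the members lay mostly below 0. Of the 53, 35 were negative and 18 positive, with a median log2 fold change of -0.30, against -0.01 and 50.9% negative over all genes.

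Counts that need no adjusted p gave a similar picture. The 3 libraries of each genotype did not overlap for 14 members (26.4%), 12 of them lower and 2 higher, against 37.6% of all genes. An unadjusted limma p under 0.05 was reached by 17 members (32.1%), 15 of them lower, against 30.3% of all genes. A fold change of at least 2 was fitted for 7 members, of which 6 were lower (Ifit2, Ifit3, Gbp7, Herc6, Trim30a and Ifi44) and 1 was higher (Mx1), which is 13.2% of the members against 10.8% of all genes. The shares of members were thus near those of all genes by adjusted p, unadjusted p and fold, and smaller by non-overlap. Over all genes, 986 were lower and 601 higher by at least 2-fold. No test compared the members with other genes.

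**Figure D1:**
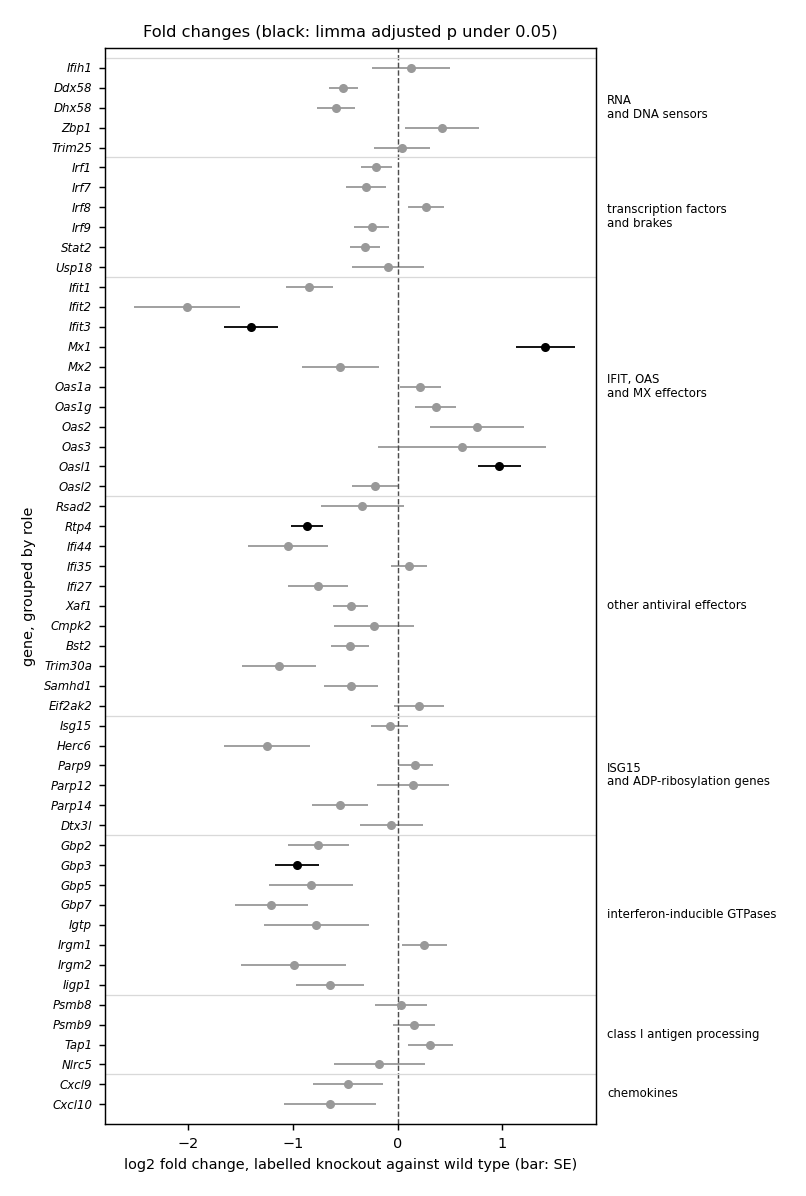
Log2 fold change of the 53 members, labelled knockout against wild type, with its standard error as a horizontal bar, grouped by role. Points in black passed a limma adjusted p of 0.05 (Ifit3, Rtp4 and Gbp3 on the left, Mx1 and Oasl1 on the right), and 35 of the 53 points lie left of the dashed line at 0.

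Promoter sequences were looked up because most of these genes are known to be induced through the ISRE or the GAS. RefSeq promoters of the mouse build GRCm38.p6 were matched by symbol for 41 of the 53 members. The 250 bases before each start were searched on both strands for the ISRE core GAAANNGAAA and the GAS core TTCNNNGAA, whose matches can overlap one another. The ISRE core was found in 18 of the 41 members (43.9%), against 3.46% of the 27025 genes in the table. The GAS core was found in 12 members (29.3%), against 8.13% of genes, and 6 members held both. The stretches below, each read 5′ to 3′ on the strand of its gene and ending at the base before the RefSeq start, are shown because their genes behaved differently: Isg15 had a fold change near 0, Ifit3 and Gbp3 were lower, Ifit1 is the neighbour of Ifit3, and Oasl1 was higher. Capitals mark matches to the ISRE core, which reads as TTTCNNTTTC when it lies on the opposite strand.
Isg15 (chr4:156200819-156200918, minus strand): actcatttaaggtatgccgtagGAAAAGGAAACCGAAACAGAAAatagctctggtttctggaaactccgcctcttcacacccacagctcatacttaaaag
Ifit1 (chr19:34640769-34640888, plus strand): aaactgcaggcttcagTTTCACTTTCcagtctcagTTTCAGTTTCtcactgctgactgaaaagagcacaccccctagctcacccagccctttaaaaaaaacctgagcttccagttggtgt
Ifit3 (chr19:34583369-34583528, plus strand): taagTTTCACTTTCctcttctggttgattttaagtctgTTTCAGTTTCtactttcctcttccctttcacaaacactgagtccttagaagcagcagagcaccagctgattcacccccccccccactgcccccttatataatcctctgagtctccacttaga
Gbp3 (chr3:142559984-142560043, plus strand): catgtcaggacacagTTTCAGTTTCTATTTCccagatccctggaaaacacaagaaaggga
Oasl1 (chr5:114923120-114923239, plus strand): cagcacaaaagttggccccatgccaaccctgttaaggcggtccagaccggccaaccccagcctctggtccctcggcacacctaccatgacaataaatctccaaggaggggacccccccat

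Isg15 held 3 overlapping matches, Ifit1 and Ifit3 held 2 separate ones each, and Gbp3 held 2 overlapping ones at the first of its 2 listed starts. Oasl1 held no match to either core in its 250 bases, which says only that these letters are not in that window. Of the 18 members with an ISRE core, 14 had a negative and 4 a positive fold change, with a median of -0.70 and 2 called lower (Ifit3 and Gbp3). Of the 23 matched members without one, 13 were negative and 10 positive, with a median of -0.20 and 1 called higher (Oasl1). Members with matches thus sat on both sides: Oas1a and Oas1g, described below, carry 2 matches each within 20 bases of their starts and had positive fold changes. This split is a description and was not tested.

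**Figure D2:**
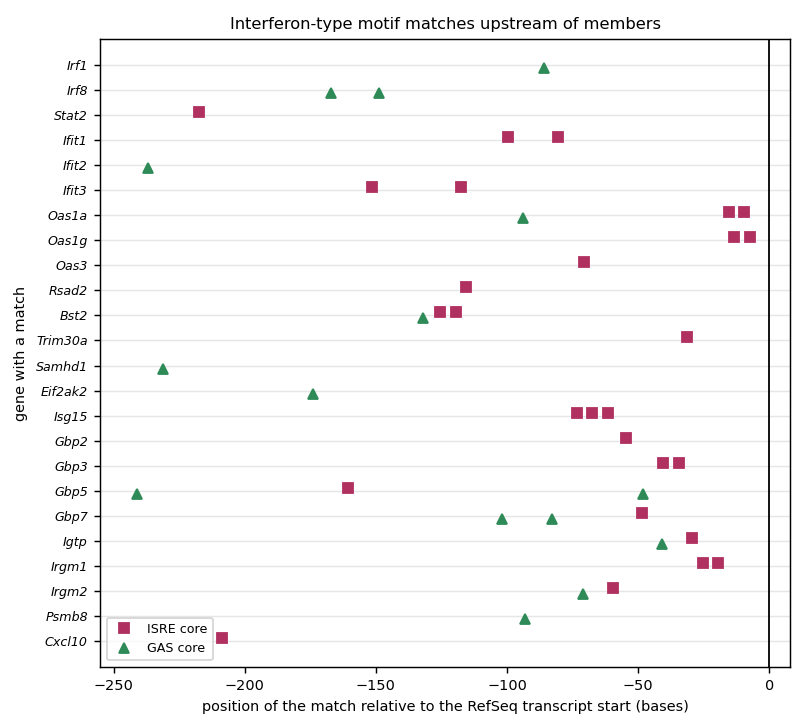
Position of each match to the ISRE core (squares) and the GAS core (triangles) in the 250 bases before the RefSeq start (0) of the members with at least 1 match. The ISRE squares of Oas1a and Oas1g lie next to the start, and those of Isg15, Ifit1 and Ifit3 lie between 57 and 156 bases before it.

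Of the 5 genes of nucleic acid sensing, none was called by limma and 2 (Ddx58 and Dhx58) reached an unadjusted p under 0.05. Trim25, the ubiquitin ligase that activates RIG-I, was the most abundant of them, with 2566, 2668 and 2156 normalised counts in wild type and 1652, 3277 and 2963 in the libraries labelled knockout. Zbp1, a sensor of Z-form nucleic acid that can start cell death, stood at 914, 1272 and 509 against 863, 1438 and 1148. The genotypes overlapped for both genes, with wild type 3 and labelled knockout 1 the lowest of their groups each time. Without these libraries both had a fold change of 0.25, not past the test. Ddx58, the gene for RIG-I itself, was at 881, 1108 and 1048 against 711, 684 and 710, a log2 fold change of -0.52 ± 0.14 (SE; limma adjusted p = 0.0607). Its 3 wild type libraries were all above the other 3, yet the adjusted p missed the threshold. Dhx58, which encodes the related LGP2, had a fold change of -0.59 ± 0.18 (limma adjusted p = 0.0821) and also did not overlap. Without wild type 3 and labelled knockout 1, Ddx58 and Dhx58 were called lower (limma adjusted p = 0.0411 and 0.0477). With labelled knockout 1 alone left out, Ddx58 was called lower and Dhx58 was not called (limma adjusted p = 0.0374 and 0.0825). Ifih1, which encodes MDA5, the sensor of long double-stranded RNA, had 764, 788 and 683 against 424, 1135 and 1113. Its value in labelled knockout 1 was 0.377 times the mean of the other 2 libraries of that group, and without that library the fold change was 0.60 ± 0.11 (limma adjusted p = 0.0191), higher in the libraries labelled knockout. Here and below, Ddx58, Dhx58, Ifih1 and the other uncalled genes that are not among the 2 most abundant of their role were singled out after their values were seen.

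None of the 6 transcription factors and brakes was called. Irf1, the factor of the interferon gamma response, stood at 4039, 4771 and 3637 in wild type and at 3398, 3579 and 3771 in the libraries labelled knockout. Irf7, the factor that amplifies type I interferon production, stood at 3813, 4851 and 3547 against 3890, 2737 and 3274. The groups overlapped for both, and the fold changes were -0.20 ± 0.15 and -0.30 ± 0.19, neither of which passed the limma test. Stat2 and Irf9, subunits of the ISRE-binding complex, had fold changes of -0.31 ± 0.14 and -0.25 ± 0.16. Stat2 did not overlap between the genotypes (lowest wild type library 1456, highest labelled knockout library 1381), but its limma adjusted p was 0.183. Irf8, the factor of myeloid cells, had 0.27 ± 0.17, and Usp18, the protease that removes ISG15 and damps the type I receptor, had -0.09 ± 0.34. None of the 6 reached an unadjusted p under 0.05.

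The 11 IFIT, OAS and MX genes held 3 of the 5 calls and went furthest in both directions. IFIT proteins bind viral RNA and block its translation, OAS enzymes make the 2′-5′ oligoadenylates that activate RNase L, and MX proteins are dynamin-like GTPases that trap viral particles. Ifit3 (chr19:34583531-34588731, plus strand) had 630, 978 and 702 normalised counts in wild type and 272, 220 and 390 in the libraries labelled knockout. Every wild type library was above every library labelled knockout, and the log2 fold change was -1.40 ± 0.26 (limma adjusted p = 0.0277). Mx1 (chr16:97447035-97462907, minus strand) had 28, 38 and 33 against 67, 83 and 126. The groups did not overlap, and the fold change was 1.41 ± 0.28 (limma adjusted p = 0.0326). C57BL/6 mice are known to carry an Mx1 allele that makes no working protein, so the value is a transcript level. Oasl1 (chr5:114923240-114937915, plus strand), an OAS-like protein without the enzyme activity that is known to limit Irf7 translation, had 969, 1359 and 985 against 1825, 2041 and 2629. It too did not overlap, with a fold change of 0.97 ± 0.20 (limma adjusted p = 0.0371).

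Ifit1, Ifit2 and Ifit3 lie together on chromosome 19 and all had negative fold changes. Ifit2 (chr19:34550694-34576419) had the lowest fitted fold change of the 53 members. Its values were 1571, 2575 and 712 in wild type and 295, 575 and 255 in the libraries labelled knockout, a fold change of -2.02 ± 0.50 that missed the threshold (limma adjusted p = 0.0539). The groups did not overlap, but wild type 3 was far below the other 2 wild type libraries. With wild type 3 and labelled knockout 1 left out, the fold change of Ifit2 was -2.39 ± 0.39 (limma adjusted p = 0.00748). With labelled knockout 1 alone left out, Ifit2 was not called (limma adjusted p = 0.0624). Ifit1 (chr19:34640871-34650009) had 1530, 2140 and 1887 against 1343, 1007 and 790, which also did not overlap, with a fold change of -0.84 ± 0.23 (limma adjusted p = 0.0645). Ifit1bl1 (chr19:34592891-34601956, minus strand), an IFIT relative between them that is not a member, went the other way. It stood at 107, 116 and 86 against 233, 614 and 690, a fold change of 2.17 ± 0.41 (limma adjusted p = 0.0287). Near-identical copies limit the reading of Ifit3: 51.2% of the 50-base stretches of its transcripts also occur in Ifit3b, whose own fold change was -0.33 ± 0.28 (limma adjusted p = 0.462), and how reads that map to several places were counted is not given in the sources used here.

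The OAS genes on chromosome 5 did not move as one. Oasl2, the neighbour of Oasl1, stood at 1504, 1802 and 1567 in wild type and at 1007, 1600 and 1679 in the libraries labelled knockout, with overlap and a fold change of -0.22 ± 0.22. Oas3 had the largest standard error of the members, with 203, 297 and 97 in wild type and 76, 468 and 591 in the libraries labelled knockout. Labelled knockout 1 held 0.144 times the mean of the other 2 libraries of its group. With wild type 3 and labelled knockout 1 left out, Oas3 had a fold change of 1.10 ± 0.21 (limma adjusted p = 0.0129) and Oas2 of 1.03 ± 0.22 (limma adjusted p = 0.0173). With labelled knockout 1 alone left out, Oas3 missed the threshold and Oas2 passed it (limma adjusted p = 0.0541 and 0.0284). With all 6 libraries the fold changes were 0.61 ± 0.80 and 0.75 ± 0.45, neither past the test. Oas1a and Oas1g had fold changes of 0.22 ± 0.20 and 0.36 ± 0.19, and they share 57.6% and 45.7% of their 50-base stretches with other genes, mostly with each other, so their values are uncertain. The promoters of this pair are alike up to the start, as the stretches before them show, where capitals again mark the ISRE core.
Oas1a (chr5:120907526-120907585, minus strand): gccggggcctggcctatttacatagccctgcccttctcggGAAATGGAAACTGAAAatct
Oas1g (chr5:120887614-120887673, minus strand): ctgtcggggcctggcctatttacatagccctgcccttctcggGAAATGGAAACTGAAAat

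Of the 8 OAS family genes tested, 2 of which (Oas1b and Oas1c) are not members, 5 had positive and 3 negative fold changes, and Oasl1 was the 1 that was called. Mx2, annotated in GENCODE as a polymorphic pseudogene, had 93, 147 and 54 against 75, 61 and 51, a fold change of -0.55 ± 0.37, opposite in sign to that of Mx1. Without wild type 3 and labelled knockout 1 it was -1.05 ± 0.26 (limma adjusted p = 0.0277). With labelled knockout 1 alone left out, Mx2 was not called (limma adjusted p = 0.255).

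**Figure D3:**
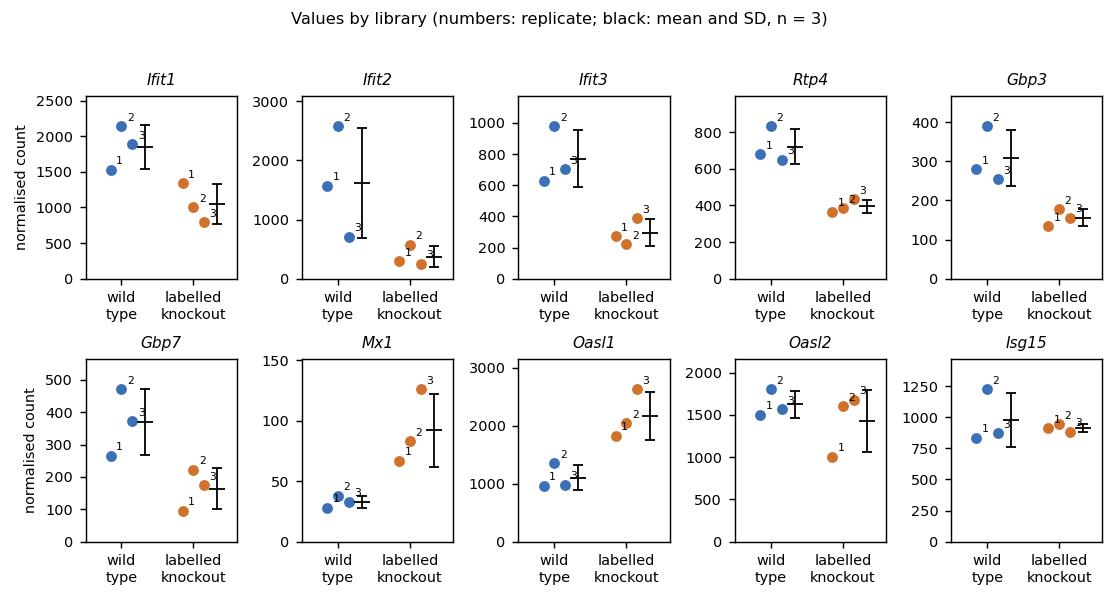
Normalised counts of 10 members in each of the 6 libraries, numbered by replicate, with the mean and SD of each genotype (n = 3) in black and vertical axes from 0. The genotypes do not overlap for Ifit1, Ifit2, Ifit3, Rtp4, Gbp3, Gbp7, Mx1 and Oasl1, and they do for Oasl2 and Isg15. Wild type 2 is the highest wild type library in each of the 10 panels.

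Of the 11 other antiviral effectors, 9 had negative fold changes and 1, Rtp4, was called. Rtp4 (chr16:23520291-23614222, plus strand), a transporter protein of chemosensory receptors that is strongly induced by interferon, had 680, 831 and 650 in wild type and 365, 386 and 432 in the libraries labelled knockout. The genotypes were well apart, with the smallest standard error of the called members, and the fold change was -0.86 ± 0.15 (limma adjusted p = 0.0254). A gene model that overlaps Rtp4, Gm45338, holds 13.9% of its exon bases, and the strand setting of the counting is not given in the sources used here. The most abundant genes of the group overlapped between the genotypes. Samhd1, which depletes the nucleotides that viruses need, stood at 2053, 2443 and 1294 against 1134, 1584 and 1421, and Ifi35, an IFN-induced leucine zipper protein, at 1277, 1434 and 1181 against 1706, 1180 and 1344. Their fold changes were -0.45 ± 0.26 and 0.11 ± 0.18. Without wild type 3 and labelled knockout 1, Samhd1 was called lower (-0.58 ± 0.13, limma adjusted p = 0.0214). With labelled knockout 1 alone left out, Samhd1 was not called (limma adjusted p = 0.417).

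Trim30a and Ifi44 had fitted fold changes beyond 2-fold without passing the test. Trim30a, a TRIM family ligase that restrains inflammatory signalling, had 302, 385 and 243 against 82, 202 and 159, with no overlap (-1.13 ± 0.35, limma adjusted p = 0.0851). Ifi44 had 84, 141 and 57 against 30, 43 and 57, with a tie between the genotypes (-1.05 ± 0.38, limma adjusted p = 0.123). Without wild type 3 and labelled knockout 1, both were called lower, Trim30a at -0.92 ± 0.19 (limma adjusted p = 0.015) and Ifi44 at -1.12 ± 0.29 (limma adjusted p = 0.0326). With labelled knockout 1 alone left out, neither was called (limma adjusted p = 0.0563 and 0.168). Ifi27, Xaf1 and Bst2 each reached an unadjusted p under 0.05 with fold changes of -0.76, -0.45 and -0.45, and their limma adjusted p-values lay between 0.126 and 0.147. Without wild type 3 and labelled knockout 1, Ifi27 was called lower (-0.93 ± 0.14, limma adjusted p = 0.00599), and Xaf1 and Bst2 were not called. Ifi27 is known for its high level in infected epithelium, Xaf1 promotes cell death, and Bst2 (tetherin) holds budding virions at the cell surface. Rsad2, the gene for viperin, Cmpk2, its neighbour on chromosome 12, and Eif2ak2, the gene for the kinase PKR, had fold changes of -0.34 ± 0.40, -0.23 ± 0.38 and 0.21 ± 0.24. Labelled knockout 1 was the lowest library of its group for these 3. Without it Rsad2 and Cmpk2 had fold changes of 0.04 and 0.22, neither past the test, and Eif2ak2 had a fold change of 0.47 ± 0.13 (limma adjusted p = 0.0451). With wild type 3 left out as well, Rsad2 and Cmpk2 had fold changes of -0.10 and 0.09. Eif2ak2 then missed the threshold (0.46 ± 0.14, limma adjusted p = 0.0506).

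Isg15 itself had a fold change near 0. The ubiquitin-like modifier had 836, 1224 and 871 normalised counts in wild type and 912, 943 and 883 in the libraries labelled knockout, a fold change of -0.08 ± 0.18 (limma adjusted p = 0.792). Wild type 2 was above the other 5 libraries, which lay close together. Per kilobase of exon, a scale that allows genes to be compared, Isg15 was at the highest level of the 53 members in both genotypes, with 1292 in wild type and 1207 in the libraries labelled knockout. Herc6, the mouse ligase that attaches ISG15 to proteins, had 400, 681 and 325 against 108, 282 and 213, with no overlap and a fold change of -1.25 ± 0.41 that missed the threshold (limma adjusted p = 0.0975). Without wild type 3 and labelled knockout 1 it was -1.09 ± 0.26 (limma adjusted p = 0.0257). With labelled knockout 1 alone left out, Herc6 was not called (limma adjusted p = 0.101).

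The ADP-ribosylation genes Parp14 and Parp12 were the most abundant of this group by count. Parp14 stood at 2111, 2793 and 2168 against 1139, 2311 and 1534 (-0.55 ± 0.27), and Parp12 at 1338, 1482 and 1321 against 846, 2056 and 2053 (0.15 ± 0.34). In Parp12, labelled knockout 1 was below and the other 2 libraries of its group were above all of wild type. Without labelled knockout 1, the fold change of Parp12 was 0.58 ± 0.11 (limma adjusted p = 0.0188). Parp9 and its partner ligase Dtx3l, which work as a pair, had 0.17 ± 0.17 and -0.06 ± 0.30. Their exons overlap by 458 bases on opposite strands, so reads there cannot be assigned without the strand.

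The interferon-inducible GTPases had the lowest median of the 8 roles. These proteins gather on vacuoles that hold bacteria or parasites and break them open. Of the 8 members, 7 had negative fold changes, with a median of -0.80, and 1, Gbp3, was called lower. Gbp3 (chr3:142560026-142573209, plus strand) had 279, 389 and 254 in wild type and 134, 178 and 156 in the libraries labelled knockout. The groups did not overlap, and the fold change was -0.96 ± 0.21 (limma adjusted p = 0.0408). Gbp7, its neighbour, had 266, 471 and 372 against 96, 222 and 175, also without overlap (-1.21 ± 0.35, limma adjusted p = 0.0732). Gbp2 and Gbp5, in the same cluster on chromosome 3, had fold changes of -0.76 ± 0.29 and -0.83 ± 0.40.

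Igtp and Irgm2, the most abundant GTPases, varied widely within each genotype. Igtp had 588, 683 and 222 in wild type and 151, 317 and 369 in the libraries labelled knockout, and Irgm2 had 452, 662 and 219 against 111, 318 and 233. Wild type 3 and labelled knockout 1 were the lowest of their groups for both, and the groups overlapped. The fold changes were -0.78 ± 0.50 and -0.99 ± 0.50, neither past the test. With those 2 libraries left out, both genes were called lower, Igtp at -0.89 ± 0.14 (limma adjusted p = 0.00749) and Irgm2 at -1.004 ± 0.227 (limma adjusted p = 0.0203). That fit called 26.4% of all genes. With labelled knockout 1 alone left out, neither gene was called (limma adjusted p = 0.573 and 0.384). Their exons overlap by 162 bases, and 11.8% of the 50-base stretches of Igtp also occur in Irgm2, which limits the reading of each as a separate gene. Irgm1, the regulator of this family, was the 1 GTPase with a positive fold change (0.25 ± 0.22), and Iigp1 had -0.65 ± 0.32.

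Relatives of these GTPases outside the members were measured as well. Over the guanylate-binding proteins as a family, 9 genes were tested, 4 of them members, and 8 had negative fold changes. Gbp6 had 373, 526 and 197 against 99, 132 and 90, a fold change of -1.67 ± 0.36 (limma adjusted p = 0.0398). Gbp9 had 143, 148 and 138 against 48, 71 and 68, a fold change of -1.20 ± 0.20 (limma adjusted p = 0.0225). Both were called lower and lie on chromosome 5, away from the Gbp3 cluster. Gbp2b, with 10, 5 and 78 against 37, 25 and 18, was the 1 with a positive fold change.

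None of the 4 class I antigen processing genes was called. Psmb8, a subunit of the immunoproteasome that cuts proteins into peptides, stood at 2119, 2172 and 1183 in wild type and at 1924, 1697 and 1789 in the libraries labelled knockout. Tap1, the peptide transporter, stood at 892, 995 and 745 against 924, 959 and 1430. The genotypes overlapped for both, and the fold changes were 0.03 ± 0.25 and 0.31 ± 0.21. Psmb9, the second immunoproteasome subunit on the list, had 0.16 ± 0.20, and Nlrc5, the factor that drives class I genes, had -0.18 ± 0.43. Tap1 and Psmb9 share 212 exon bases on opposite strands. The genotypes overlapped for all 4, and none reached an unadjusted p under 0.05.

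Both chemokines were scarce. Cxcl9 had 25, 15 and 16 normalised counts in wild type and 13, 16 and 10 in the libraries labelled knockout, and Cxcl10 had 43, 80 and 33 against 19, 48 and 31. These ligands of CXCR3 attract T cells and NK cells. The groups overlapped for both, with fold changes of -0.48 ± 0.33 and -0.65 ± 0.44, and at such low values the log2 scale with a pseudocount of 1 understates a change. Per kilobase, Cxcl9 (6.19) and Mx1 (8.72) were at the lowest levels of the 53 members in wild type.

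Levels per kilobase changed their order for a few members between the genotypes. In wild type the highest after Isg15 were Irf7 (1078), Irf1 (1044), Bst2 (841) and Ifi35 (751). Oasl1 stood at rank 11 in wild type (423) and at rank 4 in the libraries labelled knockout (830). Ifit2 stood at rank 12 (412) and at rank 33 (95.5). These ranks come from means over 3 libraries, and neighbours in the order often overlap between libraries.

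**Figure D4:**
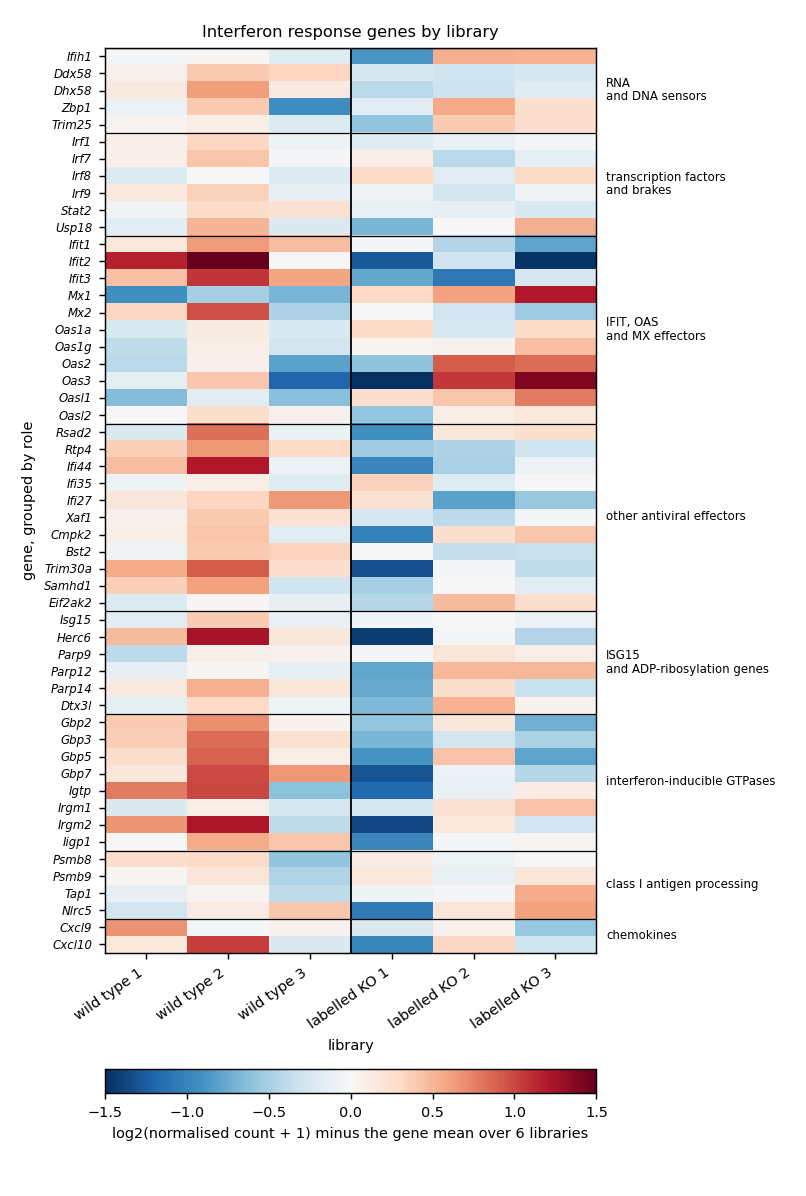
Log2 value of each member in each library minus the mean of that gene over the 6 libraries, grouped by role, with red above and blue below the mean (the colour scale ends at 1.5 in each direction). The column of wild type 2 is red in most rows and that of labelled knockout 1 is blue in many, while wild type 3 resembles neither of the other wild type columns for Oas3, Zbp1, Igtp and Irgm2.

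The members varied together within each genotype, mainly through wild type 2 and labelled knockout 1. This pattern was noticed in the values and is given as counts without a test. Wild type 2 was the highest wild type library for 50 of the 53 members (94.3%), the exceptions being Ifi27, Nlrc5 and Cxcl9, against 27.4% of the 14684 distinct symbols tested. The median member stood 1.32 times as high in wild type 2 as in the mean of wild type 1 and 3, against 0.986 times for all symbols. Ifit2 stood 2.26 times, Cxcl10 2.11 times, Mx2 and Ifi44 2.00 times, Oas3 1.98 times and Rsad2 and Irgm2 1.97 times as high, while Ifih1 and Parp12 stood 1.09 and 1.11 times as high. All 8 GTPases and all 11 IFIT, OAS and MX genes were highest in wild type 2 among the wild type libraries. So were all 6 transcription factors and brakes and all 5 genes of nucleic acid sensing.

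Genes around the members shared the wild type 2 pattern in part. Of 62 other interferon-induced genes, 39 (62.9%) were highest in wild type 2 among the wild type libraries. Of 31 genes for receptors, kinases, upstream sensing and brakes, 13 (41.9%) were. Labelled knockout 1 was the lowest of its group for 22 of the 62 induced genes (35.5%) and for 14 of these 31 (45.2%), against 40.9% of all symbols. The member sums were 45101, 56665 and 41186 for wild type, against 37395, 43974 and 45216, so wild type 2 was the highest of the 6 libraries and labelled knockout 1 the lowest. Without wild type 2 the median fold change of the members was -0.16 in place of -0.30, and without labelled knockout 1 it was -0.29.

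Labelled knockout 1 was the lowest library of its group for 34 members (64.2%). For 21 members (39.6%, against 21.3% of all symbols), both wild type 3 and labelled knockout 1, the libraries with low proximal-to-ileal scores, were the lowest of their groups. Among them were Ifih1, Zbp1, Oas2, Oas3, Parp12, Igtp, Irgm2 and Rtp4. With both left out, 21 members were called, 15 lower and 6 higher (Ifih1, Mx1, Oas2, Oas3, Oasl1 and Parp12), against 26.4% of all genes, and the 5 members called with all libraries were among them. A further fit kept all libraries and took the proximal-to-ileal score as a covariate. It called 17 members lower and 2 higher (Mx1 and Oasl1), against 32.2% of all genes. Of the members called with both libraries left out, Ifih1, Mx2, Oas2, Oas3 and Parp12 were not called with the covariate. The part of gut position in these differences was not tested beyond these fits.

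**Figure D5:**
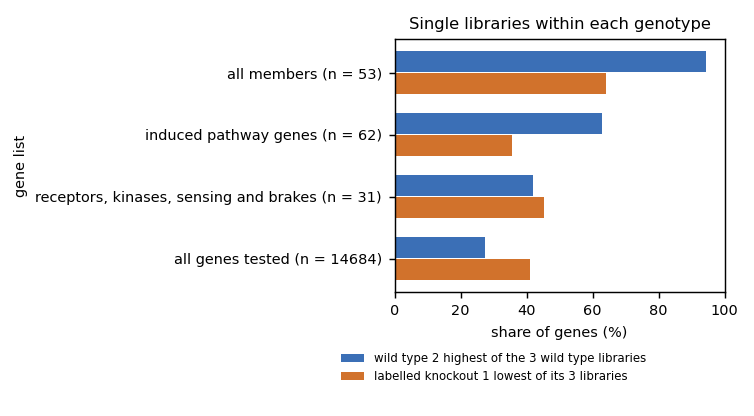
Share of genes (%) for which wild type 2 was the highest of the 3 wild type libraries (upper bars) and for which labelled knockout 1 was the lowest of its 3 libraries (lower bars), for the members, for other genes of the pathway in 2 groups, and for all symbols tested. The upper bar of the members reaches 94.3%, against 27.4% for all symbols.

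The interferons themselves were nearly undetected. Of 14 interferon genes looked up, among them Ifnb1, Ifng, Ifnl2 and Ifnl3, none exceeded a normalised count of 2 in any library, and 8 were at 0 in all 6. At this depth no difference in them was detectable. The receptors were present in all libraries, and none of the 6 subunits was called by limma, with 2 at an unadjusted p under 0.05. Ifnlr1, the subunit specific to lambda interferon, had 702, 725 and 854 in wild type and 618, 613 and 553 in the libraries labelled knockout, with no overlap (-0.35 ± 0.14, limma adjusted p = 0.145). Its partner Il10rb had 1420, 1605 and 1653 against 1616, 1301 and 1176 (-0.20 ± 0.16), with overlap. Ifngr1, the ligand-binding subunit for interferon gamma, had 1713, 1635 and 2075 against 2608, 2491 and 2447, also without overlap but higher (0.48 ± 0.14, limma adjusted p = 0.0753), and its partner Ifngr2 had 2400, 2494 and 2788 against 3303, 2842 and 3093 (0.27 ± 0.14). For the type I receptor, Ifnar1 had 989, 1111 and 1255 against 1175, 1014 and 899 (-0.12 ± 0.16). Its other subunit Ifnar2 had 566, 664 and 772 against 638, 519 and 529 (-0.24 ± 0.17), and both overlapped between the genotypes.

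Over the wider pathway list of 113 genes, chosen from textbook knowledge, 93 passed the filter. Of these, 7 were called (7.53%, against 8.79% of all genes tested), 4 lower and 3 higher. Besides Gbp6, Gbp9 and Ifit1bl1, described above, they were Batf2, Ifitm1, Ifi203 and Trim34a. Batf2, a transcription factor of activated macrophages, had 26, 22 and 18 in wild type and 97, 169 and 189 in the libraries labelled knockout, a fold change of 2.69 ± 0.30 (limma adjusted p = 0.0108). Ifitm1, a membrane protein that blocks virus entry, had 233, 289 and 347 against 1012, 570 and 560 (1.26 ± 0.27, limma adjusted p = 0.0399). Ifi203, of the family of DNA-binding PYHIN proteins, had 163, 169 and 171 against 82, 73 and 51 (-1.30 ± 0.21, limma adjusted p = 0.021), and Trim34a had 280, 299 and 319 against 176, 199 and 179 (-0.69 ± 0.14, limma adjusted p = 0.0342). For each of these 4 genes the genotypes did not overlap, as for 45.2% of the pathway genes tested and 37.6% of all genes. The called pathway genes thus went in both directions, at a share near that of all genes, as the called members did.

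Markers of several cell types moved between the genotypes as well, and their part in the results above was not tested. All 6 B cell markers had negative fold changes and 5 were called lower, with sums of 405 to 569 in wild type and 124 to 189 in the libraries labelled knockout. Of 4 endothelial markers, 3 were called lower (sums of 4118 to 4913 against 2546 to 2874). Of 12 macrophage and dendritic cell markers, 1, Adgre1, was called lower (sums of 15450 to 17154 against 9828 to 19307, overlapping). Of 6 markers of plasmacytoid dendritic cells tested, 0 were called by limma and 1 reached an unadjusted p under 0.05, with list sums of 984 to 1861 against 1237 to 9911, where Ly6d alone held 8777 in labelled knockout 1 (266 and 159 in the other 2 libraries of its group). Siglech, a defining marker, stood at 59, 59 and 17 against 21, 21 and 7, with overlap (limma adjusted p = 0.187). Of the 6 tested markers of these cells, 3 had negative and 3 had positive fold changes. Of 8 T cell and NK cell markers tested, 1, Gzmb, was called higher, with overlapping list sums of 309 to 326 against 305 to 468. Of 4 neutrophil markers tested, S100a8 and S100a9 were called higher and Retnlg lower (list sums of 196 to 259 against 273 to 733). The 6 epithelial markers summed to 67031 to 82556 against 124716 to 136467, with Krt8 and Krt20 called higher, so the labelled tissue's epithelium was present in every library. Of 6 genes of suckling enterocytes, Lct and Prdm1 were called lower, but 3 had negative and 3 had positive fold changes. Their list sums overlapped (1373406 to 1632137 against 932105 to 1902332). Fabp1, not called, was higher without overlap, at 31377, 28338 and 24224 against 65603, 47325 and 44424 (0.89 ± 0.22, limma adjusted p = 0.0543). No listed marker of these types was at 0 in all 6 libraries.

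All 5 calls depended on the libraries used. Leaving out labelled knockout 1 kept all 5 and gave 12 called members, while leaving out wild type 1, wild type 2, labelled knockout 2 or labelled knockout 3 left none, and leaving out wild type 3 left 1, Ifit2. The count over all genes, 1291 with all libraries, was 2998 in that first case, 387 in the last, and 78, 57, 619 and 28 in the order of the 4 cases between. Scaling by library totals moved the median of all genes to -0.19, and Mx1 and Oasl1 then missed the threshold (fold changes of 1.24 and 0.80, limma adjusted p = 0.0545 and 0.0766). None of the 5 changed sign in any of the 18 alternative settings, but those of the filter, trend, threshold and replicate block left the fold changes as they were.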

How the data were processed

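RNA-seq was made from 6 libraries of mouse small intestine, 3 of each genotype, assigned by their labels. Per the labels' protocols, frozen tissue was extracted with Trizol and libraries were prepared with the Illumina TruSeq kit from polyA RNA. Tools named in the submitters' processing notes are DESeq2 (no version), HTSeq 0.6.0 and TopHat2 2.1.0, with mm10 as the build. For the annotation, strand setting and multiply mapped reads, the choice is not given in the sources used here. The authors deposited 1 score for each symbol, a rounded whole number that behaves like a read count after scaling by a library factor and is not a raw count, so counting intervals were not computed. Factors estimated from the gaps among low whole numbers ranged from 0.8412 to 1.177, and gave 12500000 to 16300000 reads per library. A spreadsheet date stood in place of 27 symbols.

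Genotype was tested with limma 3.58.1 in R 4.3.3 (two-sided, intensity trend, 4 residual and 2.99 prior degrees of freedom) on log2(value + 1), for the 14686 genes whose value reached 10 in 3 or more libraries. P-values were adjusted by Benjamini and Hochberg's method and called under 0.05. Fold changes on this scale understate the change of low genes. The fit was also run on simulated data, drawn independently for each gene and library. The simulation held no difference in gut position, so it does not address how far the calls depend on single libraries. Coordinates, exon lengths and overlaps came from GENCODE vM21 (GRCm38, the assembly of mm10), and promoters from RefSeq (GRCm38.p6). The members, roles, pathway and marker lists were chosen with earlier results of these data known. Named with a value in every library were members and pathway genes past the threshold, the 2 members with the highest mean in each role, and receptor genes. The interferon genes, all at 2 or less, are given by their range. Other members were named after their values were seen. Alternatives changed the scaling, pseudocount, filter, trend, threshold, replicate block, a segment covariate and the libraries used.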

Additional observations from a re-analysis of the deposited data

How the results depend on the processing

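The number of interferon response genes called, 5 with all libraries, was 12 at an adjusted p of 0.1, 19 with the segment score as a covariate (32.2% of all genes were then called), 21 without both libraries of low segment score and 0 with the replicate block. Leaving out 1 library gave 0 to 12. For the pathway list, 7 with all libraries, the counts were 12 with library totals as scaling, 23 at 0.1, 29 with the covariate, 25 without both libraries and 0 with the block, and leaving out 1 library gave 0 to 16. Over all genes, 1291 became 2847 at 0.1, 4730 with the covariate, 3762 without both libraries and 64 with the block, and leaving out 1 library gave 28 to 2998. The cause of these shifts was not tested. The median fold change of the members stayed negative throughout, from -0.16 without wild type 2 to -0.48 with library totals, where the median of all genes was -0.19. No called gene changed sign in the 18 settings, of which those of the filter, trend, threshold and replicate block left the fold changes as they were. After each genotype's mean was removed, the correlations of same-numbered libraries were -0.37, 0.30 and -0.16. Not every library correlated best with its own number, and the highest value (0.41) was between wild type 3 and labelled knockout 1, both of low segment score. With 3 libraries per genotype, these correlations cannot decide whether the replicate numbers pair the libraries. Interferon transcripts lay at or near the lowest values this depth can show.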
